A study of Mus musculus with 32 samples.

Results

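Miat, Malat1 and Neat1 are 3 long noncoding RNAs (lncRNAs) that stay in the nucleus, and they were taken by gene name from the 49671 genes listed in the count tables. All 3 were found and passed the filter on low counts, which left 18382 genes for testing. They were chosen by their normalized counts across the strains, so their strain differences are described without a test, while sex differences, relations within strains, neighboring genes and partner proteins were tested. RNA came from the vomeronasal neuroepithelium, the sheet of sensory neurons and supporting cells with which mice detect pheromones, of 32 mice aged 42 days. There were 4 males and 4 females of each inbred strain. The labels give the strains as 129S6/SVEV (129), C57/BL6 (B6), SJL/J (SJL) and SWR/J (SWR). The paper names the first of them differently, as 129Sv/J.

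Malat1 is concentrated in nuclear speckles, where splicing factors are stored, and Neat1 is the scaffold on which paraspeckles assemble from RNA-binding proteins. Neither of the pair ends in an ordinary poly(A) tail in its long form. RNase P cuts both next to a stretch in which U-rich motifs pair with an A-rich tract. Miat, also called Gomafu, forms nuclear spots of its own, is known from subsets of neurons, and carries repeats of the branch point sequence of introns, which the splicing factor Sf1 binds.

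In the GRCm38 build, Miat lies on chr5:112213228-112229395, Malat1 on chr19:5795690-5802672 and Neat1 on chr19:5824708-5845478, all on the minus strand and all annotated as lincRNA. Malat1 and the longest Neat1 model have 1 exon, of 6983 and 20771 bases, whereas the longest Miat model, Miat-205, joins 7 exons to 9163 bases. Miat-205 holds 6 copies of TACTAAC and 11 of the shorter ACTAAC, all in exon 7. Both stretches below carry 3 of the long motif and are shown because they hold the element for which Miat is known, with the motifs in capitals.

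Miat exon 7, chr5:112217299-112217470, minus strand: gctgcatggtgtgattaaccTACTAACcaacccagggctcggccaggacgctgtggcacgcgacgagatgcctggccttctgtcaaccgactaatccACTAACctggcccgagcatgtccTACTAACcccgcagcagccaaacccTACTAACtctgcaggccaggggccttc

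Miat exon 7, chr5:112216742-112216822, minus strand: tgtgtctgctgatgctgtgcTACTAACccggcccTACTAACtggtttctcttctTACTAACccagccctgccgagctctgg

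Of the 210 lncRNA genes whose longest transcript reaches 5000 bases, Miat was the single one with 6 or more TACTAAC on the transcript strand, and the median was 0. Among all 13374 lncRNA genes, with shorter transcripts included, 2 had 6 or more. Neat1 held 1 copy and Malat1 held 0. Over all lncRNA transcripts, 0.437% of windows of 150 bases held the motif at least once and 3 of 134485 windows held it 3 times or more. A match of letters is a description and no measured binding site.

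The next stretches come from the 3′ ends of the other genes, with runs of 4 or more T or A in capitals. They are shown because this element sets the end of both RNAs. The Malat1 stretch was aligned on the longest run that both share, 16 bases that read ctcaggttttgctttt, and 285 bases of the annotated Malat1 model follow it.

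Neat1, chr19:5824708-5824827, minus strand: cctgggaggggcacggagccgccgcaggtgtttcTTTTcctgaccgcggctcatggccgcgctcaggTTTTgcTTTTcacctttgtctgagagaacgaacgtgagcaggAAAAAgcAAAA

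Malat1, chr19:5795975-5796094, minus strand: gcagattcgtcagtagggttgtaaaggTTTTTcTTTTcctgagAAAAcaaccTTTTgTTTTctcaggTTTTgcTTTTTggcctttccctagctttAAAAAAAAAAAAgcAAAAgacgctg

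The levels of the 3 lncRNAs were first laid out by strain. Miat was high in 129, SJL and SWR and close to absent in B6, whereas Malat1 and Neat1 were high in all strains. The values are the deposited normalized counts, which are read counts divided by a size factor for the depth of each library. Total counts on genes ranged from 5106398 to 18640871 per mouse. B6_female mouse 1 stood apart from its group, with a chi-square per degree of freedom of 39.8 to 54.0 against the other B6 females, which had 2.95 to 22.4 among themselves. So did 129_male mouse 1, with 23.7 to 34.9 against the other 129 males, which had 9.20 to 14.5 among themselves. B6_female mouse 1 held the lowest Malat1 and Neat1 counts of B6. Without it the log2 ratio of B6 to the mean of the other strains was -5.93 for Miat, 0.19 for Malat1 (0.13 with it) and 0.16 for Neat1 (0.08 with it). With any 1 library left out, these ratios ranged from -6.02 to -5.89, from 0.085 to 0.19 and from -0.020 to 0.16.

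For Miat, the lowest, median and highest normalized counts were 4178, 5209 and 5563 in 129, with a mean of 5007 ± 482 (SD, n = 8 mice, as for all strain means below). In SJL they were 2955, 3646 and 4308 (3571 ± 457), and in SWR 2785, 3462 and 4480 (3504 ± 475). In B6 they were 39.5, 67.7 and 79.1 (64.2 ± 12.9). The highest B6 mouse thus lay far below the lowest mouse of any other strain. The 8 B6 libraries held between 18 and 78 Miat reads each, 485 in all, so that Miat was detected in every B6 mouse at a low level. The B6 mean was 62.7-fold below the mean of the other strains, a log2 ratio of -5.97. Between 129 and either SJL or SWR the means differed 1.40-fold and 1.43-fold, and the ranges overlapped. Of the 8 mice of 129, 7 lay above every SJL mouse and 6 above every SWR mouse. SJL and SWR overlapped almost fully.

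Ranges without overlap were seen in 3 of the 18 combinations of a lncRNA and a strain pair, all of them Miat in B6 against another strain. Over all genes tested, 12.6% of such combinations were without overlap. By pair the share was 14.4% for 129 and B6, 13.1% for B6 and SJL, 12.5% for B6 and SWR, 11.9% for 129 and SJL, 13.5% for 129 and SWR and 10.2% for SJL and SWR. In 1.95% of genes all B6 mice lay below all other mice. In the model of all genes, 18 genes had a more negative B6 difference than Miat, and none of them was among the 556 tested genes of the lincRNA class, of which 2.7% were lower in B6 past a fold change (FC) of 2 and an FDR of 0.05. These figures describe the choice of Miat and are no evidence for it. A lower level in bulk tissue can come from fewer cells or from less RNA per cell, which cannot be told apart here.

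Malat1 was among the most abundant RNAs of the tissue and took between 0.939 and 1.94% of all counts in a library. Its lowest, median and highest normalized counts were 170191, 180665 and 195665 in 129 (182008 ± 8867) and 125186, 183246 and 216950 in B6 (178406 ± 27936). They were 142075, 160300 and 185245 in SJL (161353 ± 14949) and 109870, 145414 and 170490 in SWR (145573 ± 19347). The order was 129, B6, SJL and SWR, and each strain overlapped with its neighbors in this order. The ends of the order, 129 and SWR, overlapped as well, although 7 of 8 mice of 129 lay above every SWR mouse.

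Neat1 varied more between the mice of a strain than between strains. Its lowest, median and highest normalized counts were 5817, 6849 and 7842 in 129 (6953 ± 721) and 4294, 6515 and 10480 in B6 (7127 ± 2018). They were 5951, 6733 and 8893 in SJL (7133 ± 1097) and 4821, 6208 and 7084 in SWR (6135 ± 807). All strains overlapped, and B6 held both the lowest and the highest of the 32 mice.

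**Figure D1:**
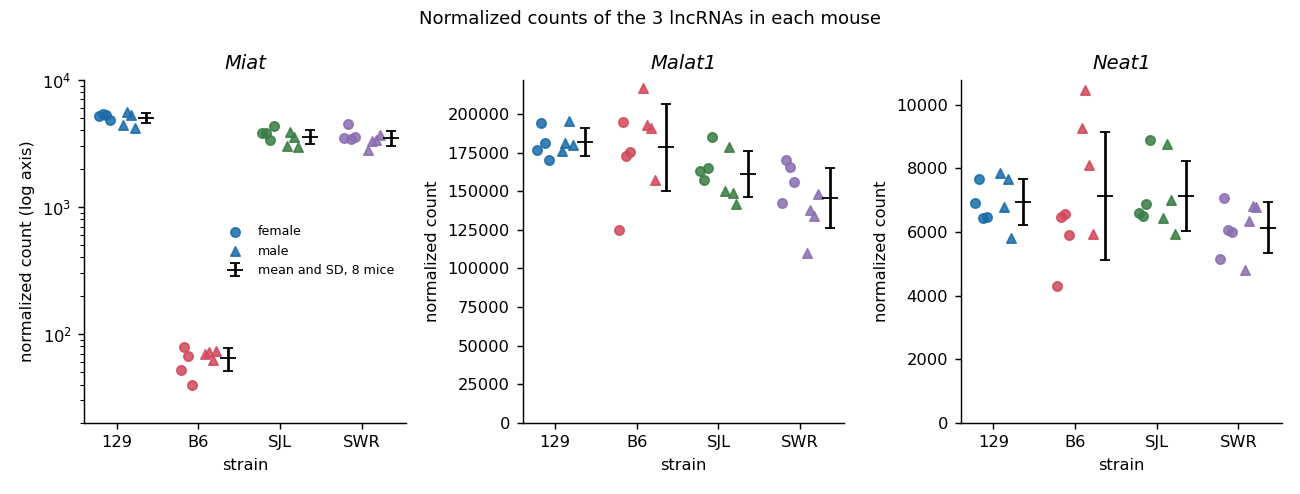
Normalized counts of Miat (log axis), Malat1 and Neat1 (linear axes from 0) in each of 32 mice, by strain, with circles for females, triangles for males and bars for the mean and SD of 8 mice. Miat in B6 lies between 39.5 and 79.1 and apart from the other strains, whereas Malat1 and Neat1 overlap between all strains.

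Levels of different genes were compared per length, as TPM, the counts divided by exon length and scaled to the same total in each library. Malat1 reached 4724 ± 843 TPM over the 32 mice and Neat1 65.2 ± 14.7 TPM, so that Malat1 exceeded Neat1 by between 54.8-fold and 92.1-fold in a mouse. The mean TPM of Miat was 95.3 ± 14.8 for 129, 79.6 ± 13.9 for SJL and 77.0 ± 15.5 for SWR, but 1.42 ± 0.339 for B6. By TPM, Miat was above Neat1 in all mice of 129, by 1.26-fold to 1.84-fold. In B6, Miat was 36.1-fold to 67.0-fold below Neat1. The TPM of Neat1 rests on an exon length of 20771 bases, while a shorter model, Neat1-202, has 3004. Which form the reads came from was not examined, so the fold differences with Neat1 depend on that length. By normalized count, Neat1 exceeded Miat in 129, with means of 6953 and 5007.

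The make-up of the tissue was checked with markers of 15 cell classes, of which no marker was at 0 over all libraries. The 8 markers of mature vomeronasal sensory neurons (such as Omp and Gnao1) were all detected. The medians of their summed level, in reads scaled to a common library total (rpm), were 3299 for 129, 3278 for SJL and 3234 for SWR. In B6 the sum ranged from 2588 to 3148 with a median of 2863. The 6 macrophage markers summed to between 101 and 140 rpm for B6, while the range was 40.0 to 57.5 for 129, 82.1 to 112 for SJL and 53.1 to 87.4 for SWR. The sum of T lymphocyte markers was 0.192 to 0.72 rpm for 129, below 0.841 to 3.39 rpm for B6 and 0.833 to 2.15 rpm for SWR. For SJL it was 0.688 to 1.59 rpm. That of sustentacular cells, the supporting cells, was 1696 to 2271 rpm for SWR and 803 to 1199 rpm for SJL. Gland markers ran from 578 to 24351 rpm between mice. The ranges of the other classes, glands included, overlapped between all strains. The part of these differences in the levels of the lncRNAs was not tested. All reads had been placed on the reference genome, which is that of B6, the strain in which Miat was lowest.

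A promoter sequence of Miat from RefSeq (GRCm38.p6, chr5:112228899-112229198, minus strand) is given because the transcript differs so widely between strains, and its letters are those of B6. It spans 250 bases before and 50 after the RefSeq start, which is also the start of the model Miat-201. The capitals mark the single match to GGGCGG on the opposite strand, a motif found on either strand in 35.6% of 32817 mouse promoters of this length.

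Miat promoter: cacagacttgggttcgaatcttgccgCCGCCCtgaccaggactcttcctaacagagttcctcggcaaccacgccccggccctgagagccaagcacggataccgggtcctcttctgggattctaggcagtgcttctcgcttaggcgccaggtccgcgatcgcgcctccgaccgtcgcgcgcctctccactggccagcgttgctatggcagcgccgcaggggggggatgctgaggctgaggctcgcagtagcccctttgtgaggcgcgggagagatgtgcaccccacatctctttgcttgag

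Neither a TATAA nor a CCAAT motif was found in this window on either strand, and the letters TGACG as well as CACGTG were missing too. It holds 25 CG dinucleotides. These letters do not show what differs between the strains.

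Genes beside and within the lncRNAs were examined next. Miat shares its locus with Gm26953, an lncRNA gene on the opposite strand (chr5:112215461-112233720, plus strand), and the stranded counts keep the pair apart. The normalized count of Gm26953 was 61.7 ± 13.9 for 129, 111 ± 15.5 for SJL and 98.6 ± 20.02 for SWR. In B6 it had 4.00 ± 3.42, from 0 to 7 reads in a library. All B6 mice lay below all others, as for Miat, and the log2 fold change (LFC) of B6 against the mean of the other strains was -4.55 (SE 0.23, edgeR FDR 5.88e-18). Set against the Miat reads, its reads came to 1.25% for 129, 3.08% for SJL, 2.83% for SWR and 5.36% for B6, which rests on 26 reads.

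Short noncoding models lie on the same strand inside the 3 genes, 4 in Miat, 1 in Malat1 and 3 in Neat1. A read there falls on more than one gene, which STAR's gene counting leaves out, and 7 of these 8 models had no read in any library while Gm27357 had 1. Both motif stretches of Miat overlap such models, Gm27627 (chr5:112217318-112217467) and Gm27882 (chr5:112216740-112216813), so reads that touch these models were not part of the Miat count.

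Within 500 kb of Miat, 8 genes were tested and 2 of them passed an FC above 2 and an FDR under 0.05 in B6 against the other strains, 1 lower and 1 higher, where 2.02% of all genes were lower and 5.59% higher. The lower one was Gm26953. The higher one was Sez6l, which encodes a membrane protein of neurons, at 26.04 ± 7.66 normalized counts in B6, where 129 had 6.97 ± 1.78, SJL 15.8 ± 5.86 and SWR 16.8 ± 6.19 (LFC 1.06, SE 0.19, FDR 1.48e-05). Its ranges in B6, SJL and SWR overlapped, and without B6_female mouse 2 or without B6_female mouse 4 the number of calls was 1.

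At an FDR under 0.05 with no limit on size, 4 of the 8 genes were lower in B6 and 1 was higher, against 24 and 27.4% of all genes. The nearest tested gene on the side of the Miat promoter, at 47.3 kb, was Tpst2, a tyrosylprotein sulfotransferase. It had 148 ± 20.3 normalized counts in B6 against 212 ± 20.5, 225 ± 19.4 and 198 ± 33.3 in 129, SJL and SWR (LFC -0.50, SE 0.08, FDR 2.02e-06). On the other side no gene was tested within 500 kb. The nearest there was Mn1, a transcriptional cofactor 756 kb away, with 214 ± 39.2 in B6 and 517 ± 46.5, 358 ± 53.8 and 225 ± 19.5 in 129, SJL and SWR (LFC -0.68, SE 0.08, FDR 7.98e-09). Both differences are small beside that of Miat.

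Malat1 and Neat1 lie side by side and share most of their neighbors. Of 58 genes tested around Malat1 and 61 around Neat1, the same 2 passed an FC above 2, both higher in B6, against 5.59% of all genes. The count was 4 with no filter on low counts, 4 by DESeq2 and 0 within 200 kb. They were Tsga10ip and the noncoding 4930481A15Rik, which are also neighbors of each other. 4930481A15Rik had 140 ± 26.3 normalized counts in B6 and 79.9 ± 12.8 in 129, while no library of SJL exceeded 0.909 and none of SWR exceeded 1.27. Tsga10ip had 17.9 ± 3.796 in B6 and 6.82 ± 2.07, 2.31 ± 2.92 and 3.53 ± 1.75 in 129, SJL and SWR (LFC 2.19, SE 0.26).

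At an FDR under 0.05 alone, 5 genes around Malat1 were higher and 19 lower, and around Neat1 5 were higher and 21 lower, against 27.4% higher and 24% lower among all genes. The neighborhoods overlap, so these counts share most of their genes. Frmd8os, 0.145 kb from Neat1 and on the opposite strand, had between 6.33 and 15.7 normalized counts in the strain means and did not pass (FDR 0.0561). Gm37376, which lies on the opposite strand inside Malat1, had 13.3 ± 4.64 in B6 and between 8.45 and 9.17 in the other means and did not pass either (FDR 0.0612).

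**Figure D2:**
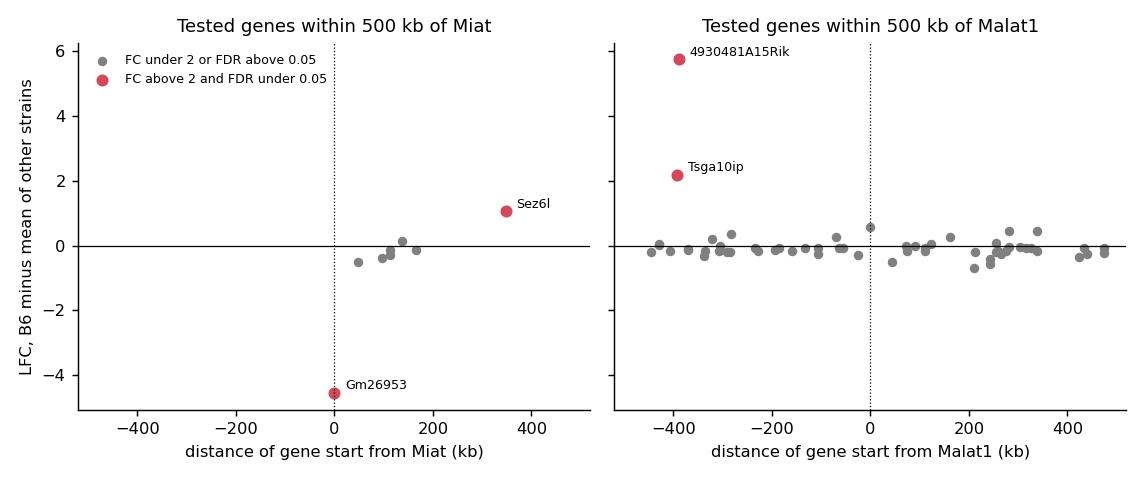
LFC of B6 against the mean of the other strains (vertical axis) for each tested gene by the distance of its start from Miat (left) or Malat1 (right) in kb, with genes past an FC of 2 and an FDR of 0.05 in red. Apart from Gm26953 at -4.55 and the named genes above 1, the neighbors lie between -1 and 1.

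The sexes were compared with strain in the model. The limits for a call were an FC above 2 and an FDR under 0.01, which 0.0381% of genes reached. None of the 3 lncRNAs was called by edgeR or by DESeq2, and 0 of 3 had an unadjusted p under 0.05. For males against females the LFC was -0.12 for Miat (95% interval -0.24 to 0.0043, edgeR FDR 0.581), -0.04 for Malat1 (-0.16 to 0.08, FDR 0.908) and 0.14 for Neat1 (-0.03 to 0.31, FDR 0.661). An FC of 2 thus lay outside each interval. The lncRNA Xist, which females express from the silenced X chromosome, had an LFC of -10.09 (FDR 2.45e-29) in the same fit and was named after its value was seen.

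Within strains, the largest sex difference of the 3 lncRNAs was that of Neat1 in B6. The females had normalized counts of 4294, 5913, 6457 and 6573 (5809.5 ± 1050.2, n = 4), and the males 5924, 8098, 9277 and 10480 (8445 ± 1942, n = 4). Thus 3 of 4 males lay above all females and the fourth lay among them. The LFC was 0.54 (95% interval 0.23 to 0.85), with an unadjusted p of 0.00126 and an FDR of 0.284 by edgeR, and DESeq2 gave an FDR of 0.153. The difference missed both limits, an FC above 2 and an FDR under 0.05, which 0.0544% of genes passed in B6. Without the filter on low counts, a setting chosen after the data were seen, the FDR was 0.000475 at an LFC of 0.59, still under an FC of 2. B6_female mouse 1, the lowest female, also had the most gland markers (24351 rpm, against 578 to 5993 in the other B6 mice) and neutrophil markers (4640 rpm, against 200.4 to 868), whose part in the difference was not tested. Next in both sums was 129_male mouse 1, with 23206 and 3309 rpm, and it had the highest Neat1 count of 129, 7842. Without B6_female mouse 1 the LFC was 0.42 and the FDR 0.616. The background of a library, reads on gene families of other tissues, was 6.97 to 39.8 rpm in the B6 females and 3.43 to 14.7 in the males. With this background as a covariate, also chosen after the data were seen, the FDR was 0.0982.

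In 129, SJL and SWR, Neat1 differed between the sexes by an LFC of 0.03, -0.03 and 0.02 (FDR 0.989, 0.993 and 0.987 by edgeR). Malat1 was lower in SWR males, with 109870, 133715, 138147 and 148447, than in SWR females, with 142381, 155845, 165694 and 170490. One male lay within the female range. The LFC was -0.26 (-0.48 to -0.05) with an unadjusted p of 0.0181 and an FDR of 0.444 by edgeR. By edgeR as by DESeq2, 2 of the 12 combinations of a lncRNA and a strain had an unadjusted p under 0.05, Neat1 in B6 and Malat1 in SWR, as had 9.14 and 8.25% of all genes by edgeR in these strains, and 7.87% in 129 and 6.64% in SJL. None of the 12 was called, while 0.0381% of genes were called in 129, 0.0544% in SJL and 0.0816% in SWR.

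Whether sex differences themselves varied with strain was tested as an interaction, which 0.0163% of genes passed. The unadjusted p was 0.0405 for Neat1, 0.0360 for Malat1 and 0.262 for Miat, and the FDR was 0.532, 0.532 and 0.742 by edgeR. None of the 3 was called by edgeR or DESeq2, and 2 of 3 had an unadjusted p under 0.05 with either tool, as had 8.94% of all genes by edgeR. Without B6_female mouse 1 the unadjusted p was 0.144 for Neat1 and 0.0661 for Malat1, from the edgeR fit. Without the filter on low counts the FDR of Neat1 was 0.0218, so the call for Neat1 depends on that filter.

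**Figure D3:**
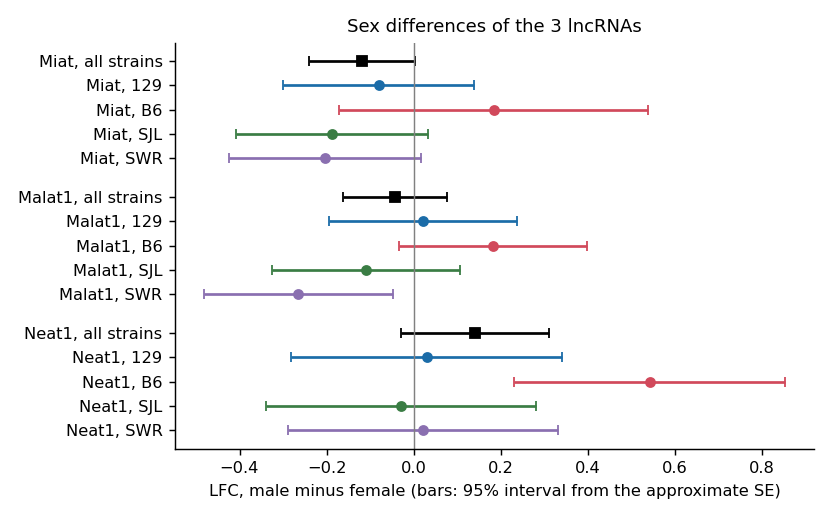
LFC of males minus females for Miat, Malat1 and Neat1, over all strains (black squares) and within each strain (colored circles), with bars for the 95% interval. Neat1 in B6, at 0.54, and Malat1 in SWR, at -0.26, are the intervals that leave out 0, and neither passed the FDR limit.

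Variation between mice of the same strain and sex was used to ask whether the lncRNAs move together. Each value was taken as log2(normalized count + 1) minus the mean of its group of 4 mice, and 12 relations were tested by permutation within groups. Malat1 and Neat1 rose and fell together. Over 32 mice Pearson's r was 0.85 (permutation p = 7e-05, adjusted 0.00084) and Spearman's rho 0.82 (permutation p = 9e-05, adjusted 0.00108). Without the mice farthest from the median of Malat1 r was 0.80, and by strain it was 0.47 for 129, 0.86 for B6, 0.97 for SJL and 0.92 for SWR (n = 8 each, a description). The points share their libraries and size factors, and each member of the pair enters the same normalization.

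Among the other 18381 genes, 1 had a higher r with Neat1 than Malat1 did, Spaca6, with 0.87. With Malat1, 5 genes had a higher r than Neat1, namely Firre with 0.91, Meg3 with 0.87, Zfp142 with 0.87, Fryl with 0.86 and Mdn1 with 0.85. Firre and Meg3 are nuclear lncRNAs too. The 6 genes were singled out after their values were seen, and the median r over all genes was -0.03 with Neat1 and -0.04 with Malat1.

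Miat was less closely tied to the pair over all strains. Its r was 0.45 with Malat1 (permutation p = 0.0883, adjusted 0.212) and 0.48 with Neat1 (permutation p = 0.0170, adjusted 0.102). The rank correlations were 0.56 (permutation p = 0.00362, adjusted 0.0145) and 0.61 (permutation p = 0.00195, adjusted 0.0117) and passed. Without the mice farthest from the median of the first gene r was 0.39 and 0.61. In B6, where Miat rests on 18 to 78 reads, r was 0.24 with Malat1 and 0.23 with Neat1, against 0.53 and 0.39 in 129, 0.77 and 0.85 in SJL and 0.80 and 0.87 in SWR. With B6 left out, a choice made after the data were seen, r was 0.72 with Malat1 (n = 24, permutation p adjusted 0.00246) and 0.75 with Neat1 (adjusted 0.00432). Leaving out B6_female mouse 4, the library with 18 Miat reads, gave 0.67 and 0.63 (both adjusted 0.00668), and leaving out B6_female mouse 1 gave 0.45 (adjusted 0.0284) and 0.46 (adjusted 0.0121). Without B6_male mouse 4 the r of Neat1 and Miat was 0.60 (adjusted 0.0259).

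None of the 9 relations with depth, the share of mitochondrial counts or the background passed. The largest was that of Neat1 with the background (r 0.38, permutation p = 0.0663, adjusted 0.199).

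**Figure D4:**
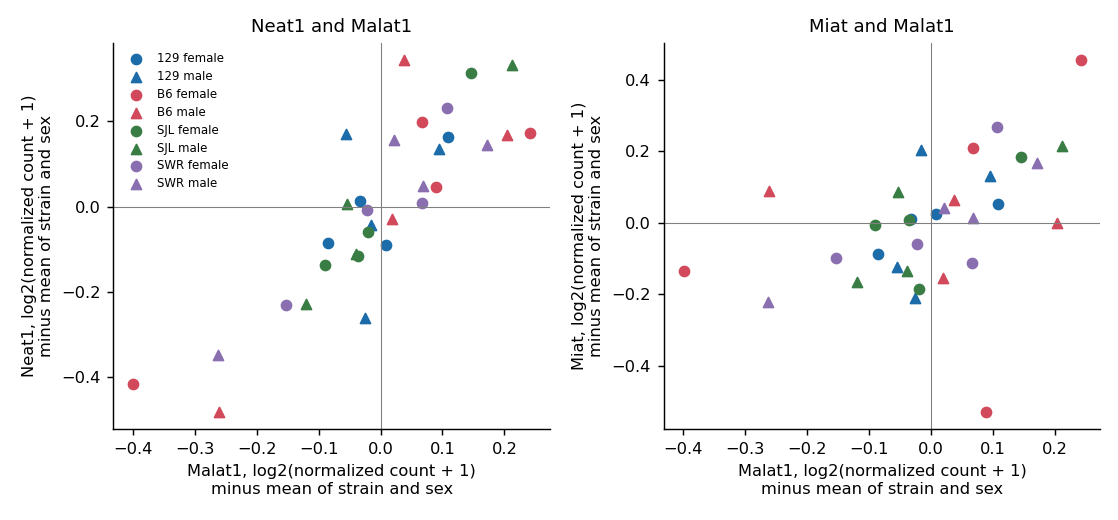
Neat1 (left) and Miat (right) against Malat1 in 32 mice, as log2(normalized count + 1) minus the mean of the strain and sex, colored by strain, with circles for females and triangles for males. Neat1 follows Malat1 (r 0.85), whereas B6 mice (red) scatter widely for Miat (r 0.45).

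Genes with the most similar pattern over the 32 libraries were found by the root mean square (RMS) difference of centred log2 values, which does not rest on a correlation. For Malat1 they were Git2 at 0.11, Ttll10 at 0.11, 4933427D14Rik at 0.12, the lincRNA Gm20342 at 0.13 and Dock3 at 0.13, where the median gene was at 0.35. A gene without any variation over the libraries would be at 0.21. Git2, for a GTPase-activating protein, had means of 486, 467, 442 and 400 in 129, B6, SJL and SWR. This is the order of strains of Malat1, which its choice by likeness favors. For Neat1 they were Cramp1l at 0.16, Firre at 0.16, Inpp5j at 0.17, Atxn2 at 0.18 and Wdfy3 at 0.18, where the median gene was at 0.38. Here a gene without variation would be at 0.26. Firre, an X-linked nuclear lncRNA, had means of 1621 ± 120, 1635 ± 226, 1786 ± 121 and 1569 ± 142 in 129, B6, SJL and SWR.

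The genes most like Miat were Gm9855, Gm4737, Gm6472, Gm9825 and Gm10704, at RMS differences of 0.44 to 0.55, and 4 of the 5 are annotated as processed pseudogenes, as are 2.17% of the genes tested. The median gene was at 2.62, and a gene without variation would be at 2.59. Gm9855 had 127 ± 14.1, 128 ± 22.6 and 127 ± 13.1 normalized counts in 129, SJL and SWR and at most 3 reads in a B6 library. Gm6472 had 319 ± 32.8, 316 ± 47.6 and 393 ± 51.3 in these strains and 6.397 ± 2.25 in B6. These counts hold only pairs with 1 placement on the B6 genome, and the part of read placement in them was not tested. With a pseudocount of 10 in place of 1, 0 of these 5 genes were among the nearest 5 and 2 of the nearest 5 were processed pseudogenes, whereas the 5 of Malat1 and the 5 of Neat1 stayed.

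Genes whose products work with the lncRNAs, and other lncRNAs, were compared between B6 and the mean of the other strains. The lists were drawn up from general knowledge, with earlier results of these data known. Large changes were rare, with 7.61% of all genes past an FC of 2 and an FDR of 0.05 and 51.4% past an FDR of 0.05 alone, at a median LFC of 0.03 over all genes. Of 31 paraspeckle protein genes 0 were past an FC of 2 by edgeR, and 12 were past the FDR, 6 higher and 6 lower in B6, with LFCs from -0.52 to 0.21 and a median of -0.01. DESeq2 also placed 0 of them past an FC of 2. Fam98a had 394 ± 24.5 normalized counts in B6 and 378 ± 52.9 in SJL against 701 ± 49.8 in 129 and 683 ± 53.9 in SWR (LFC -0.52, SE 0.06, FDR 1.30e-09). Hnrnpul1, an RNA-binding protein, and Smarca4, an ATPase that remodels chromatin, had LFCs of -0.26 and -0.25. Sfpq, Nono and Pspc1, the family of proteins at the core of paraspeckles, had LFCs of -0.02, 0.02 and -0.07 and did not pass (FDR 0.684, 0.693 and 0.124). They were named after their values were seen.

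Of 32 nuclear speckle genes, 1 was past an FC of 2 and 17 were past the FDR, 8 higher and 9 lower, with a median LFC of 0.05. The 1 was Rnps1, which binds RNA at exon junctions. It had 552 ± 33.5 normalized counts in B6 and 229 ± 19.6, 257 ± 23.9 and 247 ± 24.4 in 129, SJL and SWR (LFC 1.18, SE 0.05, FDR 1.20e-20).

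The 3 genes for proteins that bind Miat all passed the FDR with small differences. Qk, the splicing regulator quaking, was higher in B6 (LFC 0.24, SE 0.05, edgeR FDR 0.000333), whereas Celf3 (LFC -0.27, SE 0.07) and Sf1, the branch point binding protein (LFC -0.12, SE 0.05), were lower. Sf1 had 721 ± 30.7 normalized counts in B6 and 848 ± 53.3, 764 ± 95.6 and 745 ± 47.5 in 129, SJL and SWR.

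Of 18 tested genes for the processing of the 3′ ends of Malat1 and Neat1 and for RNA methylation, 0 were past an FC of 2 by edgeR and by DESeq2, and 8 were past the FDR, 7 higher and 1 lower, with a median LFC of 0.06. Rpph1, the RNA of RNase P, had 70526 ± 7562 normalized counts in B6 and 54915 ± 5726, 48608 ± 7576 and 52356 ± 6416 in 129, SJL and SWR (LFC 0.45, SE 0.07, FDR 1.07e-06). Wtap, of the complex that methylates adenosines, had an LFC of 0.38 (SE 0.03), and Pop4, a protein of RNase P, had one of 0.60 (SE 0.05). Pop4 was high in 129 too, at 479 ± 45.2, where B6 had 370 ± 17.1, SJL 165 ± 21.5 and SWR 185 ± 17.2.

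Of 28 other lncRNAs tested, 2 were past an FC of 2 and 14 past the FDR, 12 higher and 2 lower in B6, with a median LFC of 0.28. Gm26870 had 13662 ± 15422 normalized counts in B6, 3220 ± 2950 in SJL, 3657 ± 4304 in SWR and 163 ± 35.7 in 129 (LFC 3.34, SE 0.49, FDR 8.10e-07). Its SD exceeded its mean in B6 and SWR, and with the background as a covariate the count past an FC of 2 was 1. The paper had singled out Gm26870 for its differences between these strains, so its place among the calls is no independent result. Snhg3, the host of a small nucleolar RNA, had 116 ± 16.9 in B6 and 51.0 ± 8.16, 34.3 ± 7.22 and 48.2 ± 9.36 in 129, SJL and SWR (LFC 1.41, SE 0.09). Over the 6 pairs of strains, 0 paraspeckle genes, 1 nuclear speckle gene, 0 genes for Miat-binding proteins, 1 gene of the processing list and 4 other lncRNAs passed the same limits in at least 1 pair, against 19.8% of all genes. By pair, such limits were passed by 11.1% of genes between 129 and B6, 8.38% between 129 and SJL, 7.73% between 129 and SWR, 7.99% between B6 and SJL, 8.05% between B6 and SWR and 4.5% between SJL and SWR.

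**Figure D5:**
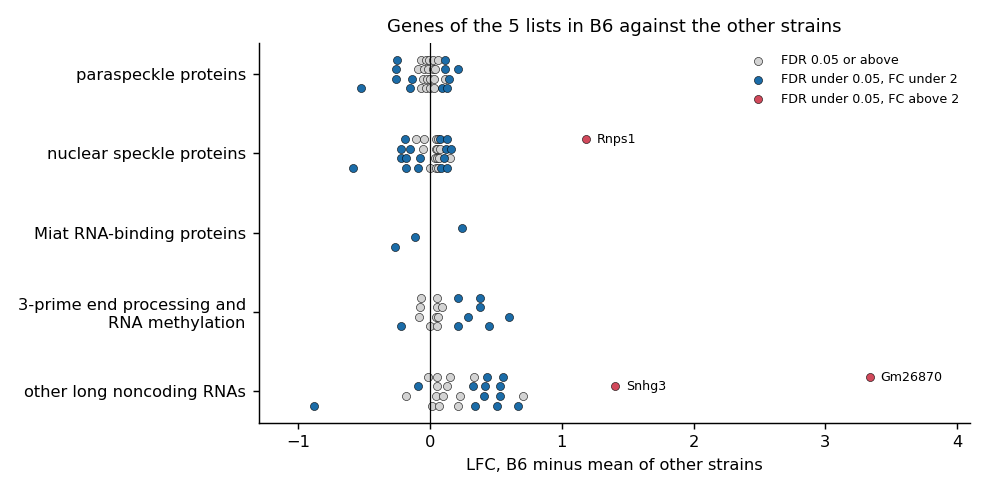
LFC of B6 against the mean of the other strains for each tested gene of the 5 lists, with genes past an FDR of 0.05 in blue and those also past an FC of 2 in red. Rnps1, Snhg3 and Gm26870 are the genes past an FC of 2, and the paraspeckle genes lie between -0.52 and 0.21.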

How the data were processed

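The authors read stranded, ribodepleted total RNA libraries as pairs, trimmed them with Trim Galore and placed them with STAR on GRCm38 (mm10), using Ensembl gene models. Per gene, the authors deposited the count of pairs with 1 placement and the strand of that gene. They also deposited a normalized signal, in which DESeq2 size factors had been divided out (100% of values gave back whole reads, within 0.01). Genes were matched to GENCODE M21 by identifier (49326 of 49671), and TPM used its exon lengths.

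Counts were tested with edgeR 4.0.16 (R 4.3.3, limma 3.58.1) by the quasi-likelihood test, with TMM, filterByExpr over the 8 groups and Benjamini-Hochberg adjustment over 18382 genes (FDR). Alternatives were DESeq2 1.42.0, its size factors, no filter, a replicate block, a background covariate and each library left out. The standard error (SE) is the LFC divided by the root of F. The tests were checked on simulated data. The members and lists were chosen with earlier results of these data known. Named genes are list genes and neighbors past an FC of 2 (at most 5) or else the 3 of lowest FDR in a list, the nearest tested neighbors (1 is not reported here), the 5 most alike genes and Gm26870. Correlations used 100000 permutations. The smallest p these can give is 1e-05. Each library came from 1 mouse, and no library was left out.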

Additional observations from a re-analysis of the deposited data

Results flagged for a closer look

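Each of the 3 lncRNAs was looked at in the 8 groups of 4 mice and the 4 strains of 8 mice, 36 sets in all, for a mouse far from the rest by Dixon's 95% limit. Chance flags about 1 set in 20, and 2 were flagged here. Among SWR females, Miat was 4480 in mouse 2 with the next highest at 3575, a gap of 0.875 of the group's range. Among SJL females, Neat1 was 8893 in mouse 4 with the next highest at 6866, a gap of 0.851 of the range. Neither mouse stood apart within the 8 mice of its strain by this limit.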

How the results depend on the processing

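Of 1816 values under other settings for 57 results, 1748 were rated the same, 1532 of 1568 with a library left out. For tests and correlations this meant the same side of the threshold and, where there was one, the same direction. Counts of genes had to stay near the main count. Strain ratios had to stay within the mean SD of the mice of a strain, and a small ratio could change sign. That of Neat1 in B6 ranged from -0.020 to 0.16 with 1 library left out. The replicate number was taken from the library description, where it may name a sequencing lane. Same-numbered libraries of different groups had a median correlation of -0.015 (from -0.28 to 0.44). For libraries with different numbers it was 0.0096 (from -0.41 to 0.40). Of 32 libraries, 5 were closest to one of their own number. These values gave no sign that the number pairs the mice, but a median cannot exclude a batch shared by some of them. The replicate block turned the r of depth and Neat1 from -0.0025 to 0.011, gave Neat1 in B6 an LFC of 0.54 (FDR 0.253), and changed no other call. Among females alone, the log2 ratio of Neat1 in B6 was -0.21, against 0.08 for all mice. Without the filter on low counts, the interaction of Neat1 had an FDR of 0.0218, 1 gene of the processing list passed an FC of 2, and 2 passed in a pair.

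Calls among neighbors moved most. Past an FC of 2, Miat had 2 and gave 9 with no filter, 4 by DESeq2, 1 with the background as a covariate and 1 within 200 kb. Malat1 and Neat1 each had 2 and gave 4 with no filter, 4 by DESeq2 and 0 within 200 kb. At the FDR alone, Miat went from 5 to 12 with no filter and 9 within 1000 kb. Malat1 went from 24 to 15 with the background, 5 within 200 kb and 42 within 1000 kb, and Neat1 from 26 to 16, 7 and 42. With the background, 1 of the other lncRNAs passed an FC of 2. With a pseudocount of 10, 0 of the 5 genes most like Miat stayed.

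Of settings chosen after the data were seen, the background as a covariate turned the male minus female LFC in 129 to -0.022 for Malat1 and -0.060 for Neat1. With B6 left out, r was 0.720 for Malat1 and Miat and 0.746 for Neat1 and Miat, and that of depth was -0.00336 with Miat, 0.170 with Malat1 and 0.129 with Neat1. The cause of these shifts was not tested.

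With 1 library left out, the LFC of the sexes in 129 ranged from -0.013 to 0.060 for Malat1 and from -0.026 to 0.11 for Neat1. For Neat1 it ranged from -0.16 to 0.08 in SJL and from -0.049 to 0.13 in SWR. Neighbors of Miat past an FC of 2 numbered 1 to 2. The r ranged from 0.336 to 0.666 for Malat1 and Miat and from 0.434 to 0.632 for Neat1 and Miat. That of depth ranged from -0.103 to 0.375 with Miat, from -0.198 to 0.083 with Malat1 and from -0.116 to 0.114 with Neat1. Depth limits Miat most in B6, where a library held at most 78 of its reads.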
